A study of Mus musculus with 15 samples.

Results

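The 7 mouse genes followed here encode enzymes of mitochondrial fatty acid oxidation, measured across the 5 groups of an array study of C/EBP transcription factors. They were Cpt1a, Cpt2, Acadvl, Acadl, Acadm, Echs1 and Hadh, and they were read through every probe set that the array annotation assigns to 1 of these symbols alone. That gave 9 probe sets for 7 genes, out of 12422 probe sets for 8251 named genes. Of the 9, 6 probe sets for 6 genes passed the filter on low signal and were tested, and both Acadvl probe sets and the dimmer of the 2 Cpt2 probe sets did not. Membership followed from the symbols, and the symbols were proposed with earlier results of these data known.

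RNA came from the immortalized mouse fibroblast line NIH 3T3 after stable transfection with a plasmid whose metallothionein promoter is switched on by zinc. The plasmid carried no insert (vector) or the human cDNA of C/EBPalpha, C/EBPbeta, C/EBPdelta or C/EBPepsilon, and these groups are called vector, alpha, beta, delta and epsilon. All 5 groups had been selected with G418 and had received zinc sulphate for 16 h, the vector cells included, and each group had 3 arrays. The labels describe both polyclonal transfectants and triplicate clones, and leave unsaid how many transfections stand behind a group. The p-values therefore cover only the variation among the cultures that were arrayed.

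Fatty acids enter mitochondria as carnitine esters, which CPT1 makes at the outer membrane and CPT2 turns back into acyl-CoA inside. Each turn of the beta oxidation spiral then begins with an acyl-CoA dehydrogenase chosen by chain length. It goes on with a hydratase and another dehydrogenase, and ends with a thiolase that releases acetyl-CoA. Echs1 encodes such a hydratase, for short chains, and Hadh encodes such a dehydrogenase. C/EBPs are bZIP factors known for their part in fat cell, liver and myeloid differentiation. Fatty acid handling is a main task of fat cells and liver.

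Echs1 and Acadm were the members that rose in the alpha, beta and epsilon groups alike, and the sequences just upstream of their annotated starts are shown because the factors compared here bind DNA. The windows are the 250 bases before the start in RefSeq, build GRCm38.p6, for which all 7 members had an entry. They lie at chr7:140116422-140116671 on the minus strand for Echs1 and chr3:153944644-153944893 on the minus strand for Acadm. Capitals mark TGATGNAAT, the composite letters of a C/EBP and ATF element, and AGGTCA, a nuclear receptor half-site, on either strand.
Echs1: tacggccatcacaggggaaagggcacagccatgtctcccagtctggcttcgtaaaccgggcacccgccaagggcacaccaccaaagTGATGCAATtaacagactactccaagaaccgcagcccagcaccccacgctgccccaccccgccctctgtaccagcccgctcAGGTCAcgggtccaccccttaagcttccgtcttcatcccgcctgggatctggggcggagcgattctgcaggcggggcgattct
Acadm: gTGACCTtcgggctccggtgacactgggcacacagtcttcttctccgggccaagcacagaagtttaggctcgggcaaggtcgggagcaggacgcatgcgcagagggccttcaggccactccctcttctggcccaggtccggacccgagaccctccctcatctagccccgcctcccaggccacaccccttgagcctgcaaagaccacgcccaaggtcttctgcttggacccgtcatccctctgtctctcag
The Echs1 window held TGATGCAAT from 164 to 156 bases before the start, and 0.816% of the 32851 windows of the table hold TGATGNAAT on 1 strand or the other. That motif was picked after the Echs1 sequence had been seen, and the match overlaps the half-site GCAAT, which 23.1% of windows hold. The C/EBP core TTNNGNAA, held by 36.8% of windows, was present in 2 of the 7 member windows, those of Acadl and Acadvl. AGGTCA was in 4 of 7 against 14% of all windows, GGGCGG (the GC box) in 5 of 7 against 32.7%, and CCAAT in 2 of 7 against 33.8%. These matches describe letters only, and binding was not measured.

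All values below are signals in arbitrary units after each array was scaled to a common median. On the deposited scale array medians ran from 992.2 to 1150 units, and log2 signals correlated at 0.929 to 0.965 within groups and 0.880 to 0.961 between them. Fibroblast markers were present, with 7 of 8 past the filter and Vim below it (median 783.1 units). None of 5 hepatocyte markers and 1 of 6 adipocyte markers, Lep, passed, while Fabp4 and Adipoq stayed at medians of 317.8 and 255.6 units. The summed adipocyte markers ran from 6881 to 8088 units in epsilon and from 5153 to 6002 in vector, without overlap. They ran from 5736 to 6874 in alpha, 5289 to 6404 in beta and 5676 to 5859 in delta. Lep gave the largest part of these sums, with a median of 3989 units. The list also holds Cebpa, the mouse gene of 1 of the factors compared, at a median of 708.6 units. The part of the adipocyte markers in the results was not tested. The muscle list had 3 of 6 markers past the filter, the macrophage and granulocyte list 3 of 8 and the epithelial list 1 of 5. The summed macrophage and granulocyte markers ran from 11110 to 11720 units in vector and lay below that, without overlap, in beta (8426 to 9738) and delta (9211 to 9746). In alpha (9754 to 11420) and epsilon (7898 to 11270) they overlapped vector, and the part of this list was not tested either. A whole-culture signal cannot tell a change in every cell from a change in the share of cells that express a gene.

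Against vector, 4 of 6 tested members were called higher in epsilon (Echs1, Acadm, Hadh and Cpt1a) and 3 in beta (Echs1, Acadm and Hadh). In alpha 2 were called higher (Echs1 and Acadm) and in delta none, and none was called lower in any group. The test was limma's moderated test, with p-values adjusted by Benjamini-Hochberg over all 6963 tested probe sets and a threshold of 0.05. Among those probe sets, 9.38% were called higher and 6.91% lower in epsilon, 5.13% and 4.18% in beta, 7.17% and 7.15% in alpha, and 0.359% and 0% in delta. The median log2 difference of the 6 members was 0.44 in alpha, 0.54 in beta, 0.29 in delta and 0.57 in epsilon, beside 0.00, 0.04, 0.01 and 0.08 over all tested probe sets. In delta, 2 members and 443 of all probe sets had an unadjusted p under 0.05. The 4 comparisons share the vector arrays, so they are not independent of each other.

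**Figure D1:**
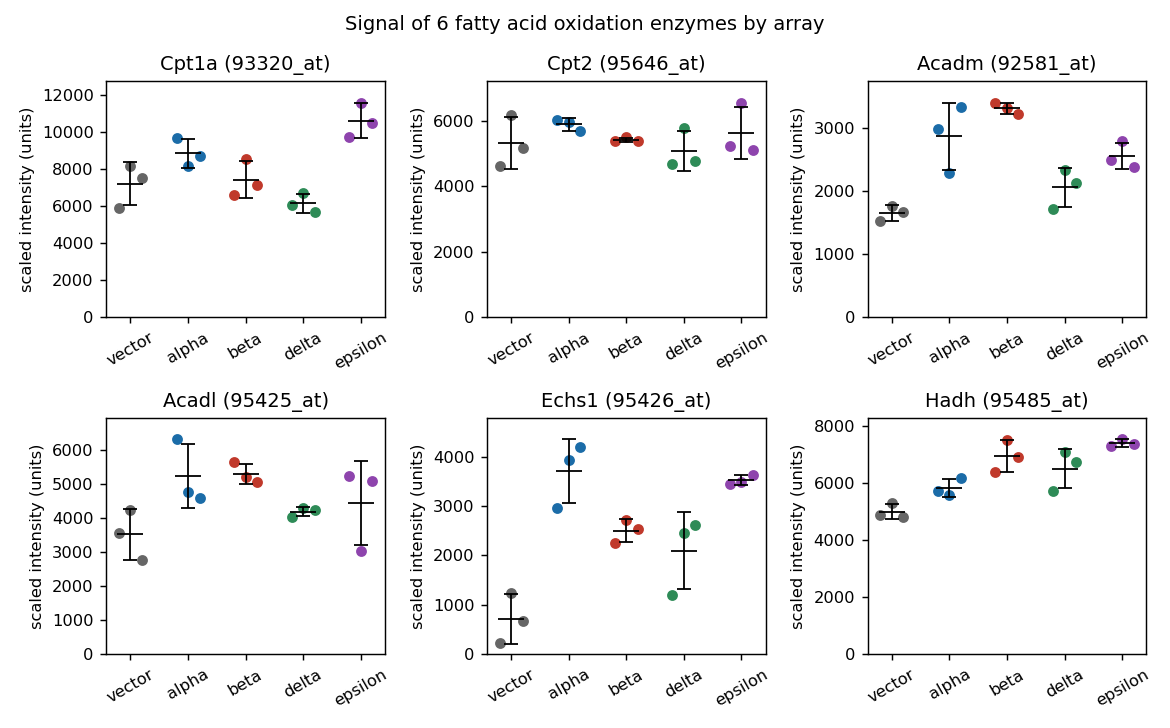
Scaled signal (units, linear axes from 0) of the 6 tested members on each of the 15 arrays; points are arrays 1, 2 and 3 of a group from left to right, and the long dash and bar are the mean and SD (n = 3). The 4 lowest Echs1 signals are those of the 3 vector arrays and delta array 1, and Cpt1a is highest on the 3 epsilon arrays.

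Cpt1a, whose product is the rate-limiting step of fatty acid entry in liver and many other cells, was highest in epsilon cells. Its signal was 5915, 8164 and 7552 units on the 3 vector arrays and 9725, 11610 and 10520 on the epsilon arrays. Every epsilon array lay above every vector array. The rise was 1.48-fold (95% interval 1.20 to 1.83, log2 0.57, SE 0.14, adjusted p = 0.0122). The call was lost without vector replicate 1 (adjusted p = 0.0691), without epsilon replicate 2 (0.0514), in a fit of these groups alone (0.0563) and without the 5 arrays numbered 1 (0.0823). The alpha arrays read 9711, 8193 and 8703, all above vector, yet the difference of 0.31 was not called (adjusted p = 0.186). It was called with quantile normalization (0.0445) and with no further scaling (0.0471). The beta arrays read 6612, 8568 and 7152 (log2 difference 0.05, adjusted p = 0.877), and the delta arrays 6073, 6715 and 5712 (-0.22, adjusted p = 0.934). Both overlapped vector.

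Cpt1a also differed between C/EBPs, in 2 of the 6 pairs. It was 1.72-fold higher in epsilon than in delta cells (log2 0.78, SE 0.14, adjusted p = 0.00206) and 1.44-fold lower in delta than in alpha cells (log2 -0.52, adjusted p = 0.0298), and the arrays did not overlap in either comparison. Of all tested probe sets, 8.21% were called between epsilon and delta and 8.4% between delta and alpha. The call of epsilon over delta held in all fits that left out 1 array. The call of delta under alpha was lost without any 1 of alpha replicate 1 (0.102), alpha replicate 2 (0.0504), alpha replicate 3 (0.0757), delta replicate 1 (0.0844) or delta replicate 3 (0.128), with no filter (0.0511) and without the 5 arrays numbered 1 (0.148). In epsilon against beta, where all epsilon Cpt1a arrays were above, the log2 difference of 0.52 was not called (adjusted p = 0.0757), and it was called under 3 other scalings, with array weights and with the replicate block (adjusted p = 0.00412 to 0.0404). In the order epsilon, alpha, beta, vector, delta, no pair of neighbours differed (adjusted p = 0.538 to 0.934).

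Cpt2, the inner membrane partner, showed no called difference in any of the 10 comparisons. Its brighter probe set read 4624, 6176 and 5156 units in vector, 6017, 5961 and 5669 in alpha, 5387, 5491 and 5376 in beta, 4678, 5784 and 4753 in delta and 5221, 6549 and 5105 in epsilon. Each C/EBP group overlapped vector. The log2 differences from vector were 0.16, 0.04, -0.07 and 0.08 in that order, and the interval for epsilon ran from a fold of 0.865 to 1.29. The other Cpt2 probe set lay under the floor on 14 of 15 arrays and could not be read.

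Acadvl, the very long chain acyl-CoA dehydrogenase, was near or under the floor in these cells. Its probe sets had medians of 63.41 and 88.5 units over the 15 arrays, with 12 and 15 arrays under the floor of 189.7 units. The brightest array, in alpha, read 276.5 units, and no fold is given.

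Acadl, the long chain acyl-CoA dehydrogenase, was not called in any group. It read 3555, 4228 and 2751 units in vector, 6306, 4769 and 4584 in alpha, 5625, 5187 and 5040 in beta, 4029, 4274 and 4225 in delta and 5215, 3022 and 5083 in epsilon. All alpha and beta arrays lay above all vector arrays, while delta and epsilon overlapped vector. The log2 difference was 0.58 in alpha (adjusted p = 0.0661) and 0.61 in beta (0.0684), and 0.27 (0.938) and 0.32 (0.316) in delta and epsilon. Epsilon replicate 2 stood apart from its group, and without it Acadl was called in alpha (0.0198), beta (0.0219) and epsilon (log2 0.57, adjusted p = 0.0438). Without vector replicate 2 it was called in alpha (0.0351) and beta (0.0400), as it was with array weights (0.0152 and 0.00383, and 0.0266 in epsilon) and with the replicate block (0.0388 and 0.0365).

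Acadm, the medium chain acyl-CoA dehydrogenase, rose in alpha, beta and epsilon cells. It read 1532, 1773 and 1667 units in vector. The values were 2993, 2289 and 3332 in alpha, 3406, 3312 and 3219 in beta and 2495, 2797 and 2389 in epsilon, all above every vector array. The rise was 1.72-fold in alpha (95% interval 1.36 to 2.17, adjusted p = 0.00281), 2.0-fold in beta (1.58 to 2.53, adjusted p = 6.8e-04) and 1.54-fold in epsilon (1.22 to 1.95, adjusted p = 0.0128). Delta read 1724, 2336 and 2131, overlapping vector, with a log2 difference of 0.31 (adjusted p = 0.839). The epsilon call was lost without vector replicate 1 (0.0530) and without epsilon replicate 2 (0.0525). Without the 5 arrays numbered 1, the alpha call was lost (0.0638), as was the epsilon call (0.101).

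Between C/EBPs, Acadm was 1.62-fold lower in delta than in beta cells (log2 -0.69, SE 0.16, adjusted p = 0.0178), where 4.77% of all tested probe sets were called, and the arrays did not overlap. The call was lost without beta replicate 1 (0.0596), beta replicate 2 (0.0597), beta replicate 3 (0.0536), delta replicate 1 (0.0934) or delta replicate 3 (0.0505), and without the 5 arrays numbered 1 (0.249). In epsilon against beta, where all epsilon arrays were below, the Acadm difference of -0.37 was not called (adjusted p = 0.297) except with array weights (0.0477). Against alpha, delta was -0.47 and not called (adjusted p = 0.0849). It was called without alpha replicate 2 (0.0302), with array weights (0.0411) and with no further scaling (0.0376). In the order beta, alpha, epsilon, delta, vector, no pair of neighbours differed (adjusted p = 0.246 to 0.845).

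Echs1, the short chain enoyl-CoA hydratase that also serves valine breakdown, had the widest range of the 6 members, with its highest group mean 5.19 times its lowest. Its probe set read 228.1, 1245 and 668.2 units on the vector arrays (713.9 ± 510.2, SD, n = 3). The alpha arrays read 2971, 3942 and 4205 (3706 ± 650.1), the beta arrays 2260, 2724 and 2532 (2506 ± 233), and the epsilon arrays 3445, 3489 and 3638 (3524 ± 101). Every array of these 3 groups lay above every vector array. Echs1 rose 6.38-fold in alpha (95% interval 3.43 to 11.9, log2 2.67, SE 0.42, adjusted p = 3.0e-04), 4.35-fold in beta (2.34 to 8.09, log2 2.12, adjusted p = 0.00419) and 6.13-fold in epsilon (3.29 to 11.4, log2 2.62, adjusted p = 4.3e-04).

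Delta cells had 1207, 2465 and 2619 units of Echs1 (2097 ± 775.1). Delta array 1 lay under vector array 2, and the others lay above all vector arrays. The fitted difference was 3.45-fold (1.85 to 6.42, log2 1.79) and was not called (adjusted p = 0.126). It was called without vector replicate 2 (log2 2.34, adjusted p = 0.00721), without delta replicate 1 (2.14, 0.0454), without the 5 arrays numbered 1 (1.48, 0.0295), with array weights (2.20, 0.00277) and with the replicate block (1.79, 0.0100). The size of all 4 Echs1 differences rested in part on vector replicate 1, the dimmest array, at 228.1 units beside a floor of 189.7. Without it the log2 difference was 2.01 in alpha (adjusted p = 3.2e-04), 1.45 in beta (0.00825), 1.12 in delta (0.307) and 1.95 in epsilon (4.7e-04). The calls in alpha, beta and epsilon held in all 15 fits that left out 1 array.

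**Figure D2:**
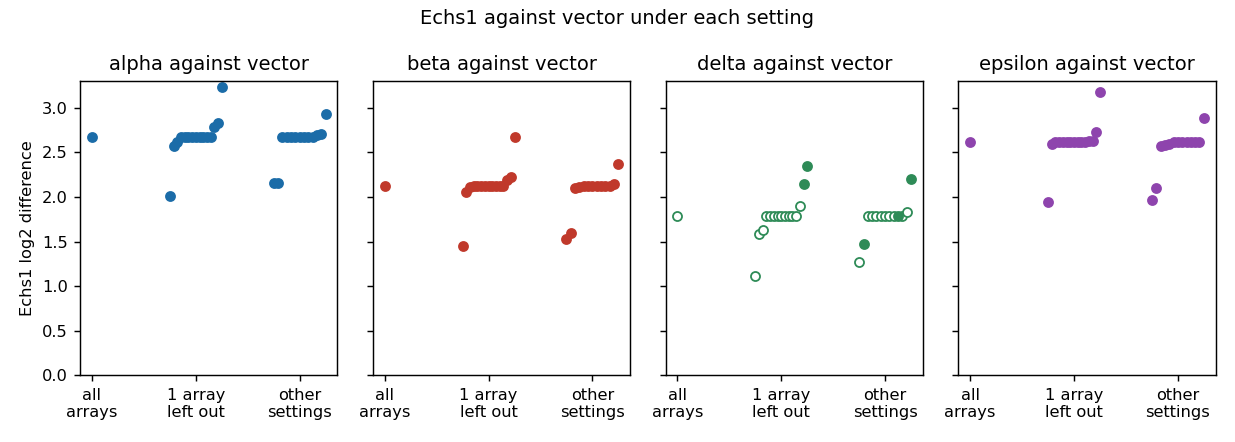
Echs1 log2 difference from vector for each C/EBP with all 15 arrays, in the 15 fits that left out 1 array and under the other settings; filled points are called at an adjusted p of 0.05, open points are not. Alpha, beta and epsilon are called under every setting shown, and delta under 2 of the 15 fits with 1 array left out and under 3 other settings.

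No pair of C/EBPs differed in Echs1 by the moderated test, although the arrays did not overlap in beta or delta against alpha, nor in epsilon against beta or delta. Its order was alpha, epsilon, beta, delta, vector, and no pair of neighbours passed, with adjusted p = 0.988, 0.667, 0.772 and 0.126 down the order. The wider pairs did not pass either. Delta was -0.89 below alpha (95% interval -1.78 to 0.01, adjusted p = 0.244) and epsilon was 0.83 above delta (-0.07 to 1.73, adjusted p = 0.257). The intervals leave room for differences of up to 1.78 on the log2 scale. They use 1 estimate of spread shared by all 5 groups (SE 0.42 for each pair). Vector arrays lay from -1.33 to 1.12 around their group mean on that scale. Alpha arrays lay from -0.30 to 0.20, beta from -0.14 to 0.12, delta from -0.72 to 0.40 and epsilon from -0.03 to 0.05.

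Hadh, the dehydrogenase that follows Echs1 in the spiral, rose in beta and epsilon cells. It read 4874, 5316 and 4831 units in vector, 6395, 7538 and 6927 in beta and 7303, 7548 and 7394 in epsilon. Both groups lay above vector on every array. The rise was 1.39-fold in beta (1.17 to 1.64, adjusted p = 0.0161) and 1.48-fold in epsilon (1.25 to 1.76, adjusted p = 0.00289). The alpha arrays (5737, 5585 and 6182) and the delta arrays (5738, 7082 and 6739) were also all above vector, with log2 differences of 0.22 (adjusted p = 0.254) and 0.38 (0.382) that were not called. With array weights Hadh was called in delta (0.0421). The beta call was lost without vector replicate 1 (0.0572), vector replicate 3 (0.0618), beta replicate 2 (0.0762) or beta replicate 3 (0.0574), in a fit of these groups alone (0.0724) and without the 5 arrays numbered 1 (0.0878). No pair of C/EBPs differed in Hadh (adjusted p = 0.236 to 0.788).

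**Figure D3:**
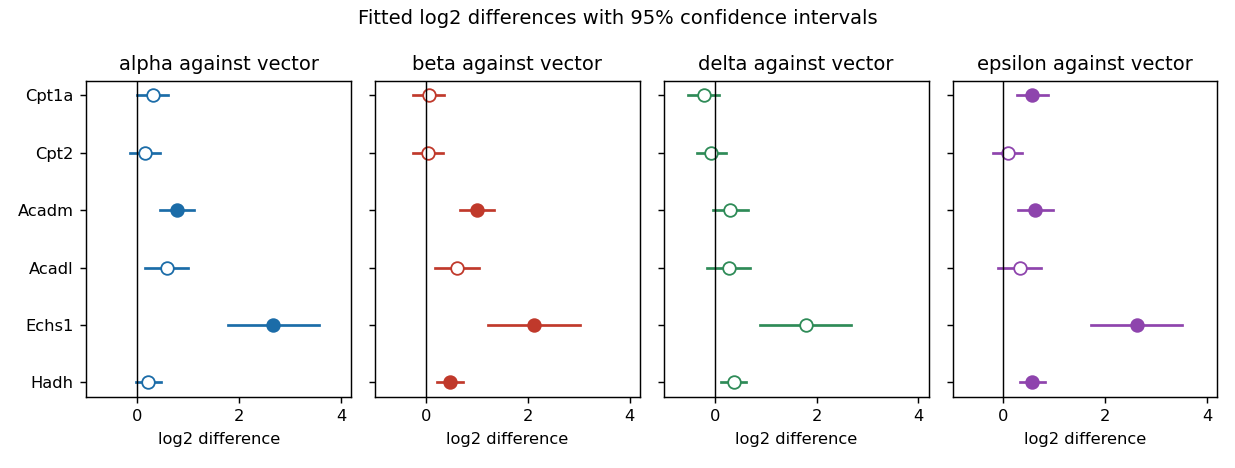
Fitted log2 difference from vector (x axis) of the 6 tested members in each C/EBP group, with 95% confidence intervals from the moderated fit; filled points are called at an adjusted p of 0.05. Echs1 lies farthest to the right in every panel, at 1.79 to 2.67, and Cpt2 lies near 0 in all 4.

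Moderated F-tests over the 5 groups called 4 of the 6 members, where 16.5% of all tested probe sets were called. They were Echs1 (adjusted p = 0.00113), Acadm (0.00165), Cpt1a (0.00646) and Hadh (0.0129), and not Acadl (0.161) or Cpt2 (0.758). Hadh was not called without vector replicate 1 (0.0512) or vector replicate 3 (0.0527), and Acadl was called without epsilon replicate 2 (0.0412). Over the 4 C/EBPs alone, where 10.2% were called, the test called Cpt1a (0.00703) and Acadm (0.0417). The Acadm call failed in 11 of the 15 leave-one-out fits, and its adjusted p was highest without delta replicate 1 (0.160). In the 3 remaining pairs of C/EBPs no member was called with the settings used here. The background there was 2.86% of probe sets between beta and alpha, 1.31% between epsilon and alpha and 2.34% between epsilon and beta. In these pairs 1, 1 and 2 members had an unadjusted p under 0.05, beside 838, 700 and 984 of the 6963 tested probe sets.

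The signals of the other members followed that of Echs1 to different degrees over the 15 arrays. Pearson's r with Echs1 in log2 signal was 0.74 for Acadm, 0.72 for Hadh, 0.55 for Cpt1a, 0.53 for Acadl and 0.50 for Cpt2, and Acadm ranked 233 of the 6297 probe sets compared. The 5 genes most like Echs1 by this measure were Xdh (0.92), Hnrnph1 (0.91), Vcan (0.90), Cstf2 (0.89) and Galnt2 (0.87). All 15 arrays fall into the same 5 groups, so these values largely restate shared differences between groups and carry no test. Xdh, the purine-oxidizing xanthine dehydrogenase, read 2442 ± 417.8 units in vector and 10080 ± 1429, 6168 ± 1584, 5670 ± 1216 and 9306 ± 1345 in alpha, beta, delta and epsilon. It was called in all 4 (log2 2.05, 1.32, 1.21 and 1.93), although in delta (adjusted p = 0.00927) not without vector replicate 1 (0.0712) or delta replicate 2 (0.0832), nor with no filter (0.0983). Vcan, the matrix proteoglycan versican, was 1.87, 1.24, 0.87 and 1.53 higher and was not called in delta (adjusted p = 0.118).

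Of 16 other tested genes of mitochondrial oxidation and fatty acid entry, 6 rose in alpha, 3 in beta, 0 in delta and 7 in epsilon, and none was called lower. Their median log2 difference was 0.23, 0.31, 0.07 and 0.44, and 1 had an unadjusted p under 0.05 in delta. The counts of this list and those below stand beside the shares over all tested probe sets. Called higher were 7.17% in alpha, 5.13% in beta, 0.359% in delta and 9.38% in epsilon. Called lower were 7.15%, 4.18%, 0% and 6.91%. An unadjusted p under 0.05 was found for 1601 of the 6963 tested probe sets in beta and 443 in delta. Etfa, which carries electrons from the acyl-CoA dehydrogenases, rose 1.63-fold in alpha, 1.71-fold in beta and 1.62-fold in epsilon (adjusted p = 0.00248, 0.00234 and 0.00295). Hadhb, the thiolase subunit of the trifunctional protein, rose 1.58-fold, 1.81-fold and 1.71-fold, the alpha call being lost without vector replicate 1 (0.0613), vector replicate 3 (0.0541) or alpha replicate 3 (0.0524). Without the 5 arrays numbered 1 Hadhb was not called in alpha (0.163) or beta (0.0557). Acsl5, an acyl-CoA synthetase, rose 1.72-fold in epsilon (adjusted p = 0.00298), as did the acyl-CoA binding protein gene Dbi by 1.61-fold (0.00429) and Acsl4 by 1.83-fold (0.00573). A second Acsl4 probe set was only 0.27 higher in epsilon on the log2 scale. Acsl5 was also called higher in alpha (adjusted p = 0.0289) and beta (0.0359), and Acsl4 (0.0220) and Dbi (0.0378) in alpha. Each of these calls was lost in 3 to 8 of the 15 leave-one-out fits and with no filter. The brightest genes that were not called were Hsd17b10 and the thiolase gene Acaa2, at 0.36 and 0.20 in epsilon.

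Peroxisomal oxidation is where very long chains are shortened. Of 9 tested genes of this list, 4 were called higher in alpha, 1 in beta, 0 in delta and 4 in epsilon. None was called lower. In delta 1 had an unadjusted p under 0.05. The list's median log2 difference was 0.53, 0.32, 0.03 and 0.53. Abcd2, a peroxisomal importer of very long chain acyl-CoA, rose from 211.8 ± 110.1 to 2534 ± 484.6 units in alpha (log2 3.36, adjusted p = 1.9e-05). For this gene 1 vector array lay under the floor. Abcd2 averaged 479.4 units in beta, 526.7 in delta and 656.3 in epsilon. It passed the 1092-unit filter through the alpha arrays alone, so it was tested only because it was high in alpha. Its alpha call is therefore not independent of the filter, and the list's alpha count and median include it. In epsilon its log2 difference was 1.40, a call lost with a floor at the 40th percentile (0.735) and without vector replicate 2 (0.0600) or epsilon replicate 1 (0.0925). Hsd17b4, the peroxisomal bifunctional enzyme, rose 2.08-fold in epsilon (adjusted p = 0.00233), and Abcd3 1.87-fold (8.4e-04). Hsd17b4 was also called higher in alpha (0.0186) and beta (0.0163), each call being lost in 3 of the 15 leave-one-out fits. Scp2, a sterol carrier and thiolase gene, rose 1.76-fold in alpha (3.0e-04), where its other probe set was 1.11 higher on the log2 scale. In epsilon the Scp2 probe sets read -0.09 and 0.35. Ech1 rose 1.73-fold in alpha (0.00127). It was also called higher in epsilon (0.0204), a call lost in 4 of the 15 leave-one-out fits.

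Branched chain amino acid breakdown, which shares Echs1, had 3 of 15 tested genes higher and 1 lower in alpha, 1 higher in beta, 0 called in delta (1 with an unadjusted p under 0.05) and 1 higher and 1 lower in epsilon. Median log2 differences were 0.24, 0.38, 0.09 and 0.38. Bckdhb, a subunit of the branched chain ketoacid dehydrogenase, rose 3.05-fold in alpha (adjusted p = 2.5e-04). Oxct1, which activates ketone bodies, rose 1.76-fold in alpha (0.00186) and 1.82-fold in epsilon (0.00131). Its beta call (1.55-fold, 0.0186) was lost in 3 of the 15 leave-one-out fits. Bcat1, the cytosolic transaminase that opens the pathway, fell by 0.68 on the log2 scale in alpha (0.00729). In epsilon Bcat1 was also called lower (-0.56, adjusted p = 0.0236), a call lost without vector replicate 1 (0.0568), vector replicate 2 (0.0802), epsilon replicate 2 (0.0669) or epsilon replicate 3 (0.0549).

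PPAR receptors, their co-activators and classic targets, the receptors being known regulators of this pathway, did not move one way. Of 13 tested, 2 rose and 1 was called lower in alpha, none was called in beta (0 with an unadjusted p under 0.05) or delta (2), and 2 were called lower in epsilon. The medians were 0.08, 0.05, -0.06 and -0.09. Pparg read 2983 ± 324.1 units in alpha with all 3 vector arrays under the floor. With vector set at the floor it was at least 15.7-fold higher than vector (adjusted p = 1.9e-04), and the call was lost with no floor (0.0619). Pparg averaged 142.5 units in beta, 331.2 in delta and 26.26 in epsilon. It passed the 1092-unit filter through the alpha arrays alone, so it was tested only because it was high in alpha. The alpha count and median of this list include Pparg, whose alpha call is likewise not independent of the filter. Angptl4 rose 2.71-fold in alpha by its brightest probe set (0.00416), while the other tested Angptl4 probe sets read 1.45 and -0.43. Rxra, the partner receptor of the PPARs, fell by 0.57 on the log2 scale in epsilon (0.0145), where its other probe set read -0.10 and the call was lost without the 5 arrays numbered 1 (0.0913). Pdk4, a target that spares glucose, was called lower in alpha (-0.82, adjusted p = 0.0437), which failed in 11 of the 15 leave-one-out fits (up to 0.220, without vector replicate 1), without the 5 arrays numbered 1 (0.332), with array weights (0.0598) and with a filter at the 25th percentile (0.0597).

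Genes of fatty acid synthesis and desaturation, the opposite pathway, rose in 2 of 11 tested cases in alpha, 4 in beta, 0 in delta (0 with an unadjusted p under 0.05) and 4 in epsilon. None was called lower, and the medians were 0.37, 0.45, 0.17 and 0.43. Elovl6, which elongates palmitate, rose 2.67-fold in alpha, 3.22-fold in beta and 2.96-fold in epsilon (adjusted p = 2.2e-04, 1.2e-04 and 9.9e-05), and its other probe set was higher by 1.03, 1.11 and 0.89. Scd2 rose 1.55-fold (0.00585) and Fasn, fatty acid synthase, 1.5-fold (0.00665) in epsilon, the Fasn call being lost without the 5 arrays numbered 1 (0.0662). Me1 was called higher in epsilon too (0.0160), a call lost in 3 of the 15 leave-one-out fits. The alpha call of Fasn (0.0346) was lost in 4 of those fits. In beta the calls of Fasn (0.0475), Scd1 (0.0423) and Scd2 (0.0334) were lost in 9, 7 and 4 of them, and with no filter. In the citric acid cycle 3 of 19 tested genes rose in alpha, 1 in beta, 0 in delta (0 with an unadjusted p under 0.05) and 3 in epsilon, with medians of 0.28, 0.31, 0.01 and 0.27. Suclg1, a subunit of succinyl-CoA ligase, rose 1.67-fold in alpha (0.00221), 1.53-fold in beta (0.0144) and 1.55-fold in epsilon (0.00715). The beta call of Suclg1 was lost without vector replicate 1 (0.0719), vector replicate 3 (0.0516) or beta replicate 2 (0.0757). Other alpha calls, Idh3g (0.0185) and Dld (0.0314), were lost in 2 and 4 of the 15 leave-one-out fits. Other epsilon calls, Idh3g (0.0384) and Dlst (0.0485), were lost in 6 and 14 of them. Citrate synthase, Cs, was not called in any group.

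**Figure D4:**
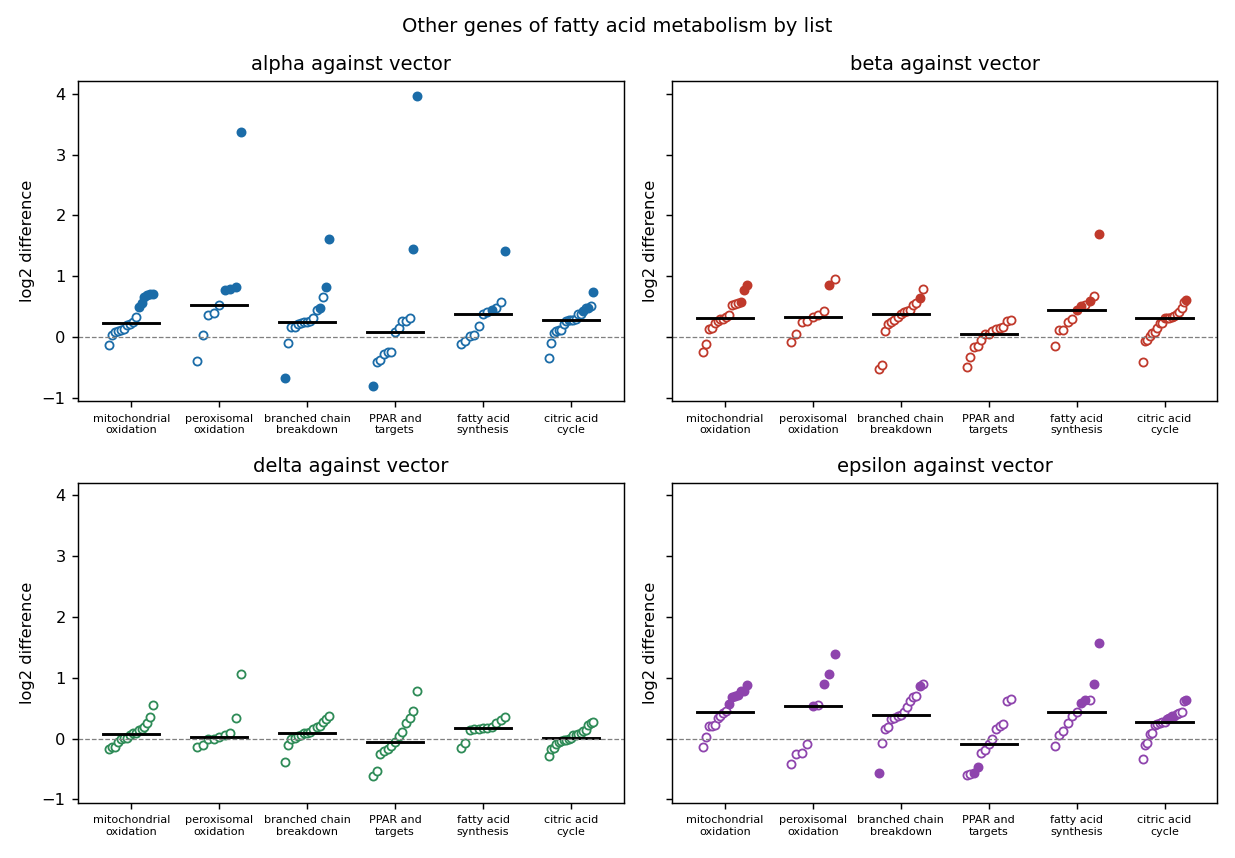
Log2 difference from vector of each tested gene of the 6 related lists in each C/EBP group; points are genes by their brightest tested probe set, filled where called at an adjusted p of 0.05, and the black bar is the list's median. Called genes lie mostly above 0 in alpha, beta and epsilon apart from the PPAR list, and delta has no filled point.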

How the data were processed

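Total RNA was hybridized to 15 Affymetrix MG_74Av2 arrays. Per the labels, the authors analysed the scans with Affymetrix Microarray Suite 5.0, and deposited 1 linear intensity value for each probe set. Their 2% trimmed mean was 2501 on every array. No detection calls were used here.

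The 66 control probe sets of the 12488 on the array were dropped. Arrays were brought to a common median, the mean of the 15 array medians. The pooled 20th percentile (189.7 units) served as a floor before log2 values were formed. Tests covered probe sets over the pooled median (1092 units) on at least 3 arrays (6963, for 5338 genes). One fit of limma 3.58.1 in R 4.3.3 (eBayes with a trend, 5 group coefficients) gave two-sided moderated tests, F-tests and intervals, with Benjamini-Hochberg adjustment within each contrast and a threshold of 0.05. Errors beside signals are SD, those beside log2 differences SE. The number of arrays limits the precision.

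Titles with no number were taken as number 1. Symbols came from the platform annotation (10833 probe sets with 1 symbol, 396 with several, 1193 with none). Each list gene was represented by the brightest of its tested probe sets. Named are every member probe set, from each list genes among the 5 with the smallest adjusted p of those called and the 2 brightest not called, and the 5 genes most correlated with Echs1. The members and lists were chosen with earlier results of these data known. The scripts were tested on simulated data. Alternative settings changed the scaling, the floor, the filter, the variance trend, the array weights, the groups in the fit, the F-test or the choice of probe set, added the replicate number as a block, or dropped each array in turn. A fit without the 5 arrays numbered 1 was chosen after seeing the data.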

Additional observations from a re-analysis of the deposited data

Results flagged for a closer look

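Among the members, 3 differences between C/EBPs passed the moderated test of the difference itself. Cpt1a was lower in delta than in alpha cells by a log2 difference of -0.52 (adjusted p = 0.0298) and higher in epsilon than in delta cells by 0.78 (adjusted p = 0.00206). Acadm was lower in delta than in beta cells by -0.69 (adjusted p = 0.0178). In each of the 3 the arrays of the groups compared did not overlap, which describes the same values as the call and adds no support to it. These comparisons share the delta arrays. The calls of Cpt1a in delta against alpha and of Acadm in delta against beta were lost in several fits that left out 1 array and without the 5 arrays numbered 1 (adjusted p = 0.148 and 0.249).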

How the results depend on the processing

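For the members, the calls of Echs1 in alpha, beta and epsilon held under all alternatives run. Echs1 in delta, at 1.79 and not called, was called with array weights (2.20), with the replicate block (1.79) and without the 5 arrays numbered 1 (1.48), and ran from 1.12 to 2.34 with 1 array left out. The number of members called higher in delta was then 2 with array weights, 1 with the block and 1 without the arrays numbered 1, and 0 to 1 with 1 array left out. Without the arrays numbered 1 it was 1 in alpha and 2 in epsilon, and with 1 array left out 2 to 4 in epsilon.

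Some differences that were never called changed sign. Acadl in epsilon against delta was -0.0046 with median ratio scaling and -0.12 without the arrays numbered 1 (-0.0912 to 0.30 with 1 array left out), and in beta against alpha it ran from -0.0551 to 0.17. Cpt1a in beta was -0.0044 without the arrays numbered 1 (-0.0856 to 0.15). Cpt2 was -0.14 in alpha, beta and epsilon by its dimmer probe set and, by the mean of both, -0.0498 in beta and -0.0275 in epsilon, but that probe set was over the floor on 1 vector array alone, so these signs say nothing about Cpt2. In beta it was also -0.0018 with quantile normalization and -0.0547 without the arrays numbered 1 (-0.0588 to 0.15). Cpt2 ran from -0.16 to 0.048 in delta and from -0.0327 to 0.19 in epsilon, and in epsilon against beta it was -0.0152 with array weights (-0.0697 to 0.11). Echs1 ran from -0.53 to 0.0246 in delta against beta and from -0.21 to 0.0417 in epsilon against alpha. The cause was not tested.

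Same-numbered arrays deviated together for number 1 (correlations 0.22 to 0.44 over 10 pairs of groups), less so for number 2 (0.02 to 0.43) and little for number 3 (-0.07 to 0.12), beside a median of -0.09 for different numbers. The criterion that every pair exceed 0.1 was not met (10, 8 and 2 of 10 did), so the numbers were not taken to pair the samples. With the replicate block, counts over all probe sets went from 1149 to 1820 among the 5 groups and from 709 to 1252 among the 4 C/EBPs. Over all probe sets those counts were 2442 and 2010 with array weights and 690 and 413 without the arrays numbered 1, where fewer arrays entered. Called higher in delta were 43 with the block, 68 with array weights, 38 with quantile normalization, 14 in a fit of the 2 groups alone and 10 without the arrays numbered 1, against 25. In beta, 357 became 641, 1003, 221 and 180 with the block, with weights, with 2 groups and without the arrays numbered 1, and in epsilon 653 became 993, 1055, 348 and 386. In alpha 499 became 268 without the arrays numbered 1. Each list gave up to 5 called genes, and not all of their calls are named above. Of these calls against vector, 11 of 20 in alpha, 3 of 10 in beta and 13 of 20 in epsilon held in all 15 fits that left out 1 array. The alpha calls include those of Abcd2 and Pparg, which were tested only because they were high in alpha.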
